A study of Mus musculus with 8 samples.

Results

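The retinoid visual cycle genes of the retinal pigment epithelium (RPE) were examined in RPE isolated from Bbs8-/- and Bbs8+/+ mice at postnatal day 29. They are 9 genes chosen by their known roles and not by a cut on measured values, though earlier results of these data were known. The genes are Rpe65, Lrat, Rdh5, Rdh10, Rdh11, Rlbp1, Rgr, Rrh and Stra6, out of 31053 genes in the count data. The question was which steps of retinoid recycling differed in transcript level in RPE that lacks Bbs8. At this age 3 of the 9 genes were lower in Bbs8-/- RPE, beside 6.8% of all tested genes. They were the isomerase gene Rpe65, the retinol dehydrogenase gene Rdh5 and the retinol receptor gene Stra6, with changes of -15.6%, -16.3% and -25.6%. The opsin gene Rrh was higher by 47.8%, a value that depended on 1 control library. Its call held in only 4 of the 8 fits that each left 1 library out. Lrat, Rdh10, Rdh11, Rlbp1 and Rgr did not pass the test. In either direction 44.4% of the 9 genes passed, close to the 40% among genes of similar abundance.

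Photoreceptors detect light when 11-cis-retinal bound to an opsin is converted to the all-trans form, and rods depend on the RPE to rebuild the 11-cis form. Retinol released by the photoreceptors, or taken up from the blood, is esterified in the RPE, isomerised to 11-cis-retinol, oxidised to 11-cis-retinal and returned to the outer segments. Loss of RPE65, LRAT or the binding protein encoded by Rlbp1 impairs vision in humans, and expression of these genes is widely read as a mark of a mature RPE.

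The 4 control animals carried 2 intact copies of Bbs8 (Ttc8), a component of the BBSome complex that carries proteins to and from the primary cilium, and the 4 knockout animals had lost both. All were C57/Bl6 mice of the same age, the controls were littermates, sex was not determined and no treatment was given. The knockout is present in every cell of the animal and not in the RPE alone, so the photoreceptors facing the RPE were mutant too. Each animal gave 1 library, made from 30 ng of total RNA with a protocol (QuantSeq) that reads only the 3′ end of each polyadenylated transcript.

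Counts on genes ranged from 2495094 to 3093428 in the Bbs8+/+ libraries and from 2389835 to 2736289 in the Bbs8-/- libraries. Levels are given as CPM, counts relative to library size, scaled by the trimmed mean of M values (TMM), and n is 4 libraries per genotype throughout. A gene at 3 counts, read as the smallest usable signal, is at 0.970 to 1.26 CPM before TMM scaling, a floor that covers counting error only. Ttc8 itself fell from 47.6 ± 10.3 to 4.70 ± 1.97 CPM (mean ± SD) with no overlap between genotypes. Where the targeted allele lies relative to the sequenced 3′ end is not given in the sources used here. The first Bbs8+/+ library stood apart from the other controls: its counts differed from theirs with a chi-square of 5.76 to 7.04 per degree of freedom, against 2.83 to 3.32 among the other controls. Among the knockouts that measure was 4.14 to 5.01. The first control library was kept, and values without it are given where they matter.

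The 2 genotypes were tested against each other by the quasi-likelihood F test of edgeR, two-sided, on the 12889 genes that reached 1 CPM in 4 or more libraries, with Benjamini-Hochberg adjustment over all of them and a threshold of 0.05. All 9 visual cycle genes passed that filter. Over all tested genes 5.46% were called higher and 6.8% lower in Bbs8-/- RPE, 12.3% in either direction. Among the 1659 genes averaging 100 CPM or more, the range in which all 9 genes lie, 40% were called. The 4 calls among 9 genes, 44.4%, are therefore close to the share among genes of similar abundance. The median log2 fold change of the 9 genes was -0.01, beside 0.02 over all tested genes and -0.09 over those abundant genes.

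Promoter sequence is shown for 3 of the genes because their transcript levels contrast: Rdh5 had the profile closest to that of Rpe65 across the libraries, while Rgr, as abundant as Rpe65, did not pass the test. Each line holds the 250 bases upstream of the RefSeq transcript start on GRCm38.p6, written 5′ to 3′ on the gene's strand, with matches to the motif letters searched in capitals.
Rpe65: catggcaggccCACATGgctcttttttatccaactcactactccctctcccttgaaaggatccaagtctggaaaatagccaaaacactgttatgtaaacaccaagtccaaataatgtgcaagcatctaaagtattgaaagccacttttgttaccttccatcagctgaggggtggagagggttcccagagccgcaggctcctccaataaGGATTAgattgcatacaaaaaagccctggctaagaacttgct
Rdh5: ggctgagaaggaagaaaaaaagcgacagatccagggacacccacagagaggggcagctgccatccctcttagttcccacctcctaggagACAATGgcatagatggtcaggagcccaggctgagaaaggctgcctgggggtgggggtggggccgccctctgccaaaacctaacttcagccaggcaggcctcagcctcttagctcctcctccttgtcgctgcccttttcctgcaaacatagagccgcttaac
Rgr: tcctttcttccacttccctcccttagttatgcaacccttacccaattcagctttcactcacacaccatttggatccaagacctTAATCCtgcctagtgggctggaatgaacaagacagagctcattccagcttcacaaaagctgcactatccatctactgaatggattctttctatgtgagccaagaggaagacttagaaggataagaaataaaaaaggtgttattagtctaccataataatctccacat
These windows are chr3:159598931-159599180 on the plus strand for Rpe65, chr10:128919298-128919547 on the minus strand for Rdh5 and chr14:37049015-37049264 on the minus strand for Rgr. The last 6 bases of the Rpe65 window lie in an annotated exon. The Rdh5 window lies inside the annotated spans of Rdh5 and of Bloc1s1, a gene on the same strand. It touches no annotated exon on that strand. The letters searched on both strands were TAATCC, the core read by OTX homeodomain factors, ACAAAG and ACAATG, cores of SOX factors, CACGTG and CATGTG, E-boxes of the kind read by MITF, and TAATTA, a LIM homeodomain core. No matches overlapped each other in these windows. The Rpe65 window held TAATCC on the reverse strand, printed as GGATTA, 42 bases before the start, and CATGTG on the reverse strand, printed as CACATG, 239 bases before it. The Rdh5 window held ACAATG 161 bases before the start, and the Rgr window held TAATCC 167 bases before it. In 32851 windows of the same length over all genes, TAATCC occurred in 6.25%, ACAAAG in 16.5%, ACAATG in 10.7%, CACGTG in 6.02%, CATGTG in 12.3% and TAATTA in 4.84%. RefSeq windows were found for 8 of the 9 genes, 12 windows in all, and Rdh10 had none. Beyond the printed windows, the Rlbp1 window held ACAAAG and CATGTG, the Rrh window held ACAAAG at 2 places and 2 of the 4 Stra6 windows held ACAAAG. One of the 2 Rdh11 windows held CACGTG and TAATTA at 2 places each, and the Lrat window held none of the letters. The letters were chosen after the levels of these genes were known. A match describes the sequence only.

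Stra6 encodes the cell-surface receptor through which the RPE takes up retinol from its plasma carrier. The gene lies at chr9:58063788-58153996 on the plus strand (GRCm38). Stra6 stood at 364, 396, 394 and 396 CPM in the 4 Bbs8+/+ libraries and at 283, 277, 292 and 301 CPM in the 4 Bbs8-/- libraries. Every control library was above every knockout library, although the first control was the lowest of its group. The mean fell from 387 ± 15.8 to 288 ± 10.4 CPM, a log2 fold change of -0.43 (SE 0.0847, adjusted p = 3.34e-04). It was the steepest fall among the 9 genes. Stra6 shares its locus with Ccdc33 on the opposite strand, whose 212 counts over all libraries compare with 7213 for Stra6, and whether the authors counted by strand is not given in the sources used here.

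Lrat encodes lecithin retinol acyltransferase, which converts retinol to the retinyl esters that RPE65 uses, and lies at chr3:82892579-82903973 on the minus strand. It measured 809, 844, 906 and 809 CPM in the controls and 803, 788, 718 and 744 CPM in the knockouts. The genotypes did not overlap, but the gap between the lowest controls and the highest knockout was under 1% of either level. The mean was 842 ± 45.5 in Bbs8+/+ and 763 ± 39.1 CPM in Bbs8-/- RPE. The log2 difference of -0.14 (SE 0.0720, 95% interval -0.29 to 0.0047) did not pass the test (adjusted p = 0.233). Groups that did not overlap were seen for 16% of all tested genes, and for 4 of the 9 visual cycle genes, Rpe65, Lrat, Rdh5 and Stra6. The 16% covers genes of every abundance, and the share among genes as abundant as these 9 was not read.

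Rpe65 encodes the isomerohydrolase that makes 11-cis-retinol from retinyl esters, the committed step of the cycle, and lies at chr3:159599175-159625321 on the plus strand. The control libraries gave 4360.2, 4741.5, 4849 and 4608 CPM and the knockout libraries 3952, 3937, 3907 and 3866 CPM. All 4 knockout libraries lay in a narrow band below the lowest control, the first. The mean was 4639.7 ± 211 in Bbs8+/+ and 3915.5 ± 38.1 CPM in Bbs8-/- RPE. The log2 fold change was -0.24 (SE 0.0498, adjusted p = 4.67e-04), a change of -15.6% with a 95% interval of -21.3% to -9.49%. Without the first control the log2 fold change was -0.27.

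Rdh5 encodes the 11-cis-retinol dehydrogenase of the RPE, which oxidises the RPE65 product to 11-cis-retinal, and lies at chr10:128913593-128922888 on the minus strand. It stood at 2552, 2499, 2495 and 2486 CPM in the controls and at 2121, 2109, 2078 and 2091 CPM in the knockouts. Both groups were tight and well apart. The mean fell from 2508 ± 29.7 to 2099.7 ± 18.7 CPM, a log2 fold change of -0.26 (SE 0.0549, adjusted p = 8.96e-04), a change of -16.3% with a 95% interval of -22.5% to -9.56%. Rdh5 overlaps Bloc1s1 on the same strand, which had 3130 counts over all libraries against 49262 for Rdh5, so some reads at the shared positions may not have been assigned to either gene.

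Rdh10 and Rdh11 encode dehydrogenases that can also oxidise retinol in the RPE and, unlike Rdh5, are used in many other tissues. Rdh10 (chr1:16105774-16133734, plus strand) measured 1064, 1199, 1272 and 1196 CPM in the controls and 1399.6, 1260.2, 1355 and 1261 CPM in the knockouts. The third control exceeded 2 of the knockouts, so the genotypes overlapped. The log2 difference of Rdh10, 0.16 (SE 0.0677, 95% interval 0.02 to 0.29), did not pass the test after adjustment (adjusted p = 0.139). Rdh11 (chr12:79174337-79192293, minus strand), the least abundant of the 9 genes, ranged from 108 to 139 CPM in the controls and from 106 to 143 CPM in the knockouts. Its interval, from -0.18 to 0.32 on the log2 scale, spans changes from -11.6% to 25.0%, which are within the error of this measurement (adjusted p = 0.80).

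Rlbp1 encodes CRALBP, the protein that binds 11-cis-retinoids in the RPE and also in Müller glia, and lies at chr7:79374870-79387048 on the minus strand. Its 4 control values were 1925, 1833, 1818 and 1780.1 CPM and its 4 knockout values 1847, 1872, 1972 and 1863 CPM. The first control and the third knockout were the highest of their groups, and the ranges overlapped. The means were 1839 ± 61.5 and 1889 ± 56.7 CPM, and the log2 difference was 0.04 (SE 0.0587, 95% interval -0.08 to 0.16, adjusted p = 0.771).

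Rgr and Rrh encode opsins of the RPE that do not serve image-forming vision directly: RGR is a photoisomerase that binds all-trans-retinal, and Rrh encodes peropsin, whose role is less settled. Rgr (chr14:37034909-37048964, minus strand) stood at 4460.4, 4758, 4790.1 and 4854 CPM in the controls and at 4748, 4534, 4828.5 and 4638 CPM in the knockouts. The knockout values fell inside the control range. Its log2 difference was -0.01 (SE 0.0488, 95% interval -0.11 to 0.09, adjusted p = 0.950), so a fall as large as that of Rpe65 lay outside the interval of Rgr.

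Rrh (chr3:129804408-129822587, minus strand) measured 62.6, 184, 209 and 161 CPM in the controls and 238, 233, 238 and 199 CPM in the knockouts. The first control had less than any other library, and the third control exceeded the fourth knockout, so the genotypes overlapped. The mean rose from 154 ± 64.1 to 227 ± 18.9 CPM, a log2 fold change of 0.56 (SE 0.175, 95% interval 0.21 to 0.92, adjusted p = 0.0268). Without the first control library the log2 fold change was 0.30 (adjusted p = 0.0387), and the call was lost when the fourth control or any of the first 3 knockouts was left out. DESeq2's Wald test gave 0.57 with an adjusted p of 0.329. Of the 4 calls, that of Rrh alone was lost in this way, whereas Rpe65, Rdh5 and Stra6 were called lower with each of the 8 libraries left out in turn.

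**Figure D1:**
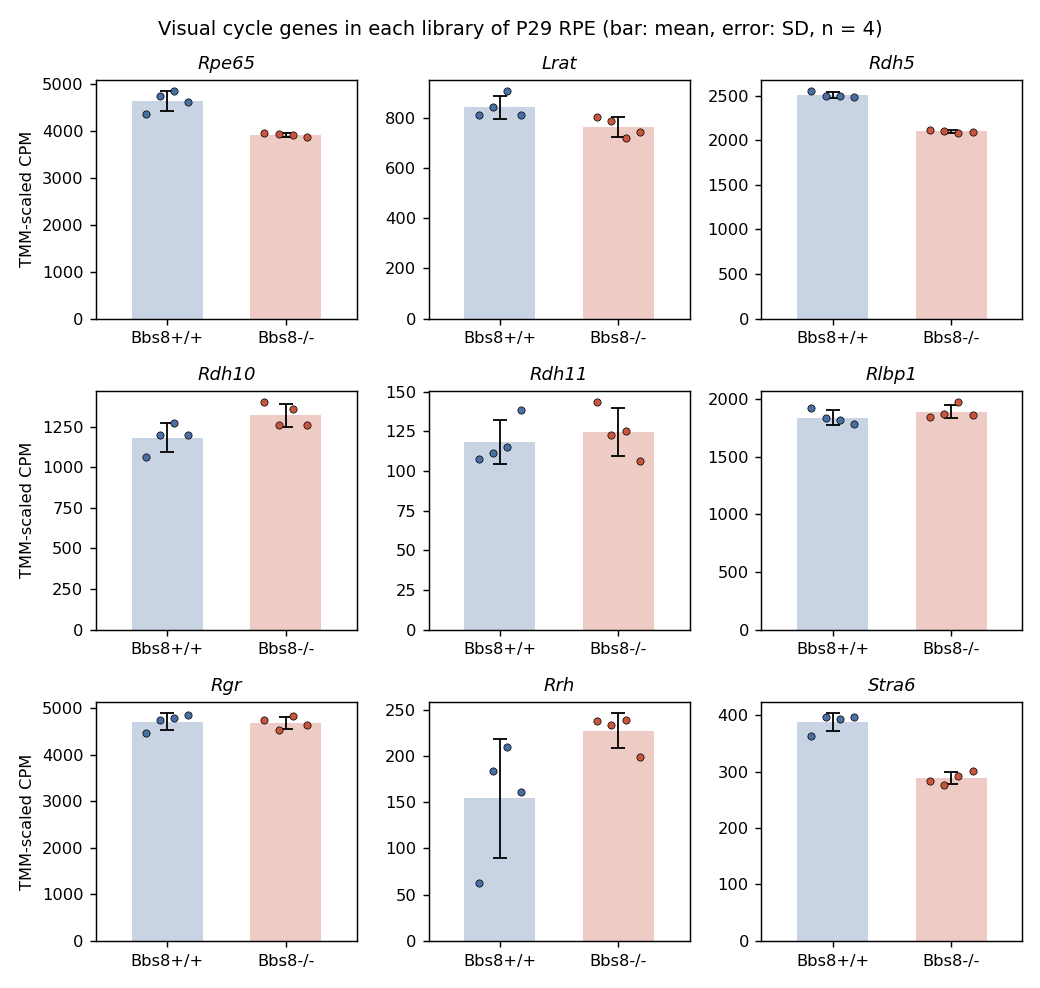
Level of each visual cycle gene in TMM-scaled CPM (vertical axis, from 0, with its own scale in each panel) by genotype. Points are libraries in replicate order, bars are means and error bars are SD over 4 libraries. Rpe65, Rdh5 and Stra6 separate the genotypes, the knockout points of Rgr (4534 to 4828.5 CPM) lie within the control range, and the first control library of Rrh sits alone at 62.6 CPM.

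**Figure D2:**
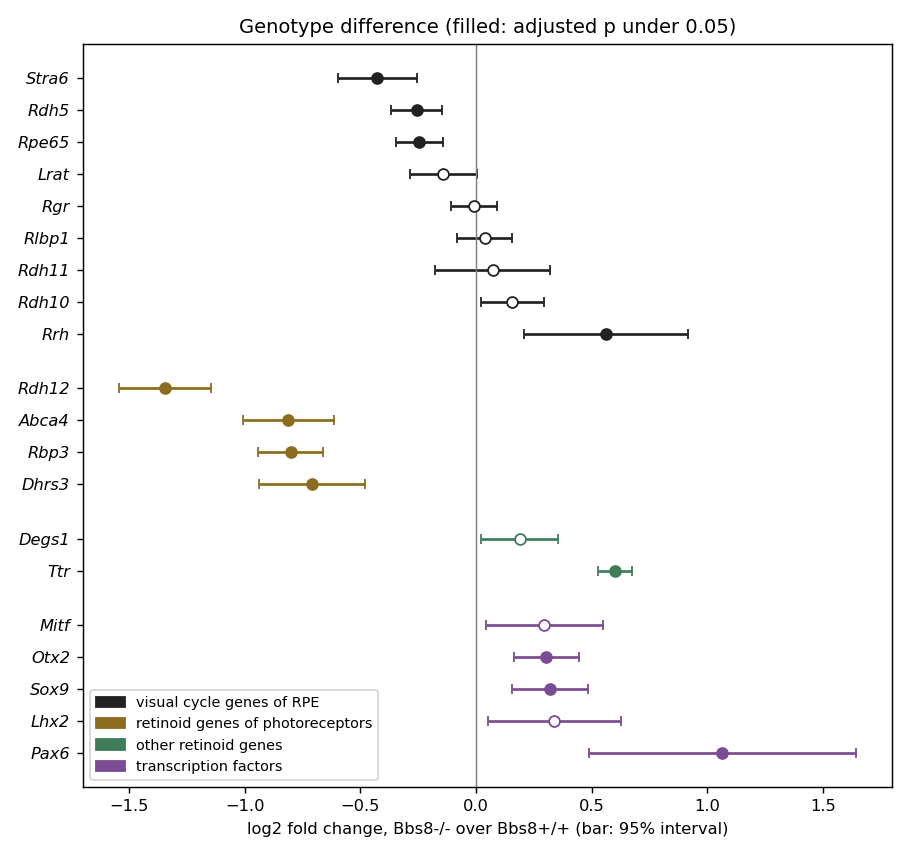
Log2 fold change of Bbs8-/- over Bbs8+/+ RPE (horizontal axis) with its 95% interval from edgeR, for the 9 visual cycle genes, named retinoid genes of photoreceptors, other retinoid genes and transcription factors. Filled symbols passed an adjusted p of 0.05. The visual cycle genes run from -0.43 for Stra6 to 0.56 for Rrh, and the photoreceptor genes from -1.34 for Rdh12 to -0.71 for Dhrs3.

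The 9 genes span a wide range of abundance. Since QuantSeq yields one tag per transcript end and not one per unit of length, CPM compares transcripts roughly by number, although the efficiency of priming may differ between genes. In the controls the order from highest to lowest mean CPM was Rgr, Rpe65, Rdh5, Rlbp1, Rdh10, Lrat, Stra6, Rrh and Rdh11. Rgr at 4715 ± 175 and Rpe65 at 4639.7 ± 211 CPM did not differ beyond their spread in the controls. In the knockouts the same order held, and there Rgr at 4687 ± 129 was above Rpe65 at 3915.5 ± 38.1 CPM in every library. Rrh and Rdh11 overlapped in the controls, at 154 ± 64.1 and 118 ± 13.9 CPM, and did not in the knockouts, at 227 ± 18.9 and 124 ± 15.2 CPM. All other neighbours in the order were apart in every library of both genotypes.

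The make-up of the visual cycle counts can be read without any scaling between libraries, as the share of each gene in the counts on all 9. Rpe65 held 28.3% ± 0.480 of these counts in the controls and 25.6% ± 0.353 in the knockouts (SD, n = 4). Rdh5 went from 15.3% to 13.7% and Stra6 from 2.36% to 1.88%. The shares of these 3 genes did not overlap between genotypes. In the other direction Rgr went from 28.8% ± 0.533 to 30.6% ± 0.487 and Rdh10 from 7.21% ± 0.320 to 8.61% ± 0.324, again without overlap, as did Rrh from 0.932% to 1.48%. The shares of Lrat, Rdh11 and Rlbp1 overlapped. A share rises when the others fall, so a higher share of Rgr or Rdh10 is not a higher level.

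**Figure D3:**
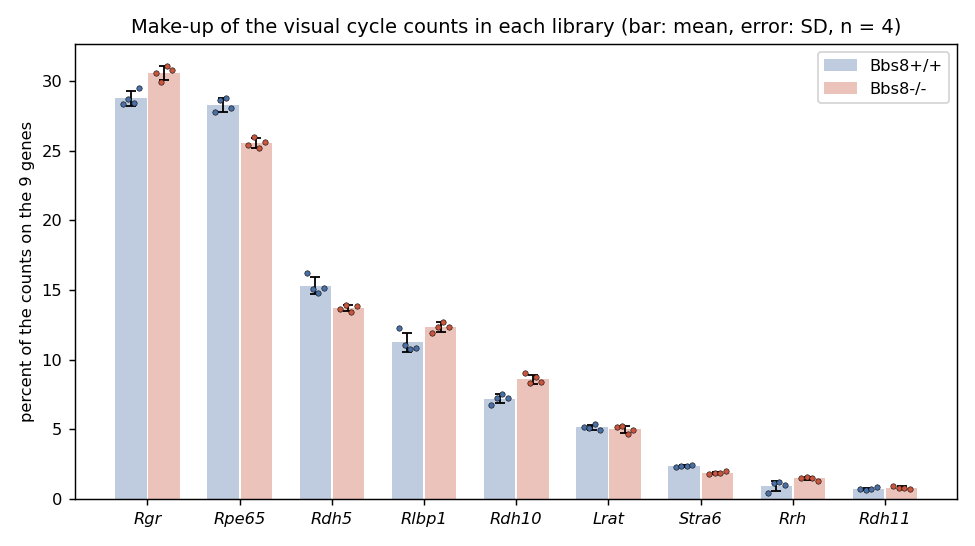
Share of each gene in the counts on the 9 visual cycle genes, in percent (vertical axis, from 0), by gene in order of abundance. Bars are means over 4 libraries, error bars are SD and points are libraries. Rpe65, Rdh5 and Stra6 hold smaller shares in Bbs8-/- libraries, and Rgr, Rdh10 and Rrh larger ones.

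Ratios between genes of the cycle show the same pattern within libraries. For each count on Rgr there were 0.984 ± 0.0271 counts on Rpe65 in the controls and 0.836 ± 0.0244 in the knockouts, with no overlap. The ratio of Rpe65 to Rdh5 was 1.85 ± 0.102 in the controls and 1.86 ± 0.0130 in the knockouts and overlapped. For each count on Rdh5, the dehydrogenase of 11-cis-retinol, there were 0.472 ± 0.0391 counts on Rdh10 in the controls and 0.628 ± 0.0325 in the knockouts, without overlap. Lrat per Rpe65 (0.182 ± 0.00554 and 0.195 ± 0.00865) and Rlbp1 per Rgr (0.391 ± 0.0283 and 0.403 ± 0.0105) overlapped between genotypes. These ratios were chosen after the levels were seen and are given without a test.

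Summed over the 9 genes, the level was 15705 to 16848 CPM in the controls and 15069 to 15535 CPM in the knockouts, without overlap. As a share of all counts on genes, without TMM scaling, the sum was 1.4997% to 1.65% in the controls and 1.55% to 1.61% in the knockouts, which overlapped. In bulk RNA of this kind, fewer RPE cells in the sample and less RNA of a gene per cell cannot be told apart.

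The genes whose profile over the 8 libraries was most like that of Rpe65 were found by the root mean square difference of log2 CPM, after each gene was centred on its own mean, among the same 1659 genes of 100 CPM or more. Rdh5 was the closest, at 0.0502, followed by Kmt2e at 0.0528, Hnrnpab at 0.0534, Rps12 at 0.0556 and Eif4g2 at 0.0575, against a median of 0.208 over all ranked genes. Of the other visual cycle genes Lrat ranked 18 of 1659, Stra6 91, Rgr 185, Rlbp1 427, Rdh10 828, Rdh11 864 and Rrh 1625. Likeness here includes the genotype difference itself, and the 8 libraries are few for ranking so many genes.

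Other genes of retinoid metabolism were read from a list of 33, of which 27 were tested, 1 was higher and 4 were lower in Bbs8-/- RPE. The 4 lower genes all belong to the 7 genes on that list that act in photoreceptors, 6 of which were tested. Rdh12, a photoreceptor retinal reductase, fell from 353 ± 20.02 to 139 ± 12.4 CPM (log2 fold change -1.34, SE 0.0974, adjusted p = 1.27e-13). Abca4, the outer-segment transporter of retinal adducts, fell by 0.81 on the log2 scale, Rbp3, the retinoid-binding protein of the space between photoreceptors and RPE, by 0.80, and Dhrs3, a retinal reductase prominent in cones, by 0.71 (adjusted p = 4.27e-08, 1.68e-11 and 1.06e-05). In none of the 4 did the genotypes overlap. Of the others, Rdh13 and Rdh14 did not pass the test and Rdh8 was at 0 counts in 6 libraries and at 3 counts in 1 library of each genotype, too low to be tested.

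Of the 26 remaining retinoid genes 21 were tested and 1, Ttr, was called. Ttr encodes transthyretin, the partner of plasma retinol-binding protein, and is one of the most abundant transcripts of the RPE. It rose from 20932 ± 539.9 to 31748 ± 1397 CPM (log2 fold change 0.60, SE 0.0355, adjusted p = 3.35e-16). All 4 knockouts, from 29945 CPM up, were above all controls, at most 21446 CPM. Degs1, proposed as a retinol isomerase of Müller glia, gave 0.19 (adjusted p = 0.148). Other tested genes of this group, among them the retinoic acid receptors Rara, Rarb and Rarg and the enzymes Aldh1a1 and Cyp26a1, did not pass the test. Aldh1a3, which makes retinoic acid, was at 0 counts in every control and at 15, 2, 1 and 1 counts in the knockouts, too low to be tested.

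Of the 5 transcription factors listed for their known part in the expression of visual cycle and RPE genes, 3 were higher in Bbs8-/- RPE. All 5 differences were above 0 on the TMM scale. When libraries were scaled to RPE markers, which include Ttr and also Otx2 and Mitf, the differences of Sox9, Otx2 and Mitf were below 0. The difference of Lhx2 was not read on that scale. SOX9 and OTX2 are known to act on promoters of visual cycle genes together. Sox9 rose from 480.3 ± 25.6 to 599 ± 56.2 CPM (log2 fold change 0.32, SE 0.0817, adjusted p = 0.00577). Otx2 rose from 910.4 ± 54.6 to 1125 ± 71.8 CPM (0.30, SE 0.0701, adjusted p = 0.00201). Pax6 rose from 10.2 ± 0.740 to 21.4 ± 2.34 CPM (1.07, SE 0.284, adjusted p = 0.00844). Lhx2 (0.34, adjusted p = 0.126) and Mitf (0.30, adjusted p = 0.132), the pigment-cell regulator, did not pass the test. Sox9, Pax6 and Lhx2 are also known from Müller glia or other cells of the neural retina.

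Markers of other cell types moved with genotype in these samples. Summed over 13 rod genes the level was 55423 to 59762 CPM in the controls and 22506 to 23123 CPM in the knockouts, and 13 of 13 were lower. Of 15 lens genes, 15 were lower, with sums of 3377 to 3612 and 467 to 522 CPM. Of 6 erythrocyte genes, 5 were lower, with sums of 5154 to 5718 and 1985 to 2218 CPM. The rod sums move the same way as Rdh12, Abca4 and Rbp3, and the part of carried-over photoreceptor RNA in their fall was not tested.

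Rlbp1, Rgr and Rdh10 are also known from Müller glia. The 6 Müller markers summed to 1154 to 1349 CPM in the controls and 1770 to 1906 CPM in the knockouts, and 2 of 6, Glul and Dkk3, were called higher. Most of that sum was Glul, at 1088 to 1270.5 CPM in the controls and 1641.5 to 1757.4 CPM in the knockouts. The sums therefore mainly describe that gene. Slc1a3, Aqp4, Kcnj10 and Abca8a had means of 0.951 to 8.445 CPM in the controls and 2.904 to 14.97 CPM in the knockouts, and did not pass the test. Of the 6 markers Aqp4, a defining marker, was at 1 to 8 counts in the controls and 3 to 28 counts in the knockouts. The part of Müller RNA in the levels of Rlbp1, Rgr and Rdh10 was not tested. Cone genes were low, at 169 to 214 and 294 to 329.5 CPM in sum, with 5 of 8 higher. Of 5 fibroblast genes, which summed to 1005 to 1377 and 956 to 1150.3 CPM, 2 were lower. In both edgeR and DESeq2, 0 of 4 melanocyte genes and 0 of 4 endothelium genes passed, with 1 and 0 at an unadjusted p under 0.05. These lists summed to 134 to 184 and 174 to 189.7 CPM for melanocytes, and to 17.8 to 27.6 and 21.4 to 32.1 CPM for endothelium.

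The labelled tissue was checked with 13 further RPE genes. Their sum was 27233 to 28757 CPM in the controls and 37556 to 41070 CPM in the knockouts, with 7 of 13 higher and 1, Pmel, lower. Ttr alone made up 74.1% to 74.7% of that sum in the controls and 79.7% to 80.9% in the knockouts. Without Ttr the sums were 7059 to 7311 and 7442 to 7848 CPM, still without overlap. Best1, a chloride channel gene often used to mark the RPE, was at 0 to 5 counts in every library, at or near the floor. Dct, the second most abundant of the list, did not pass the test (log2 difference -0.06, adjusted p = 0.531).

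Because these lists moved, the visual cycle genes were also scaled in other ways. Leaving rod, cone, lens and erythrocyte genes out of the TMM factors changed none of the 9 calls. Scaling by library size alone moved the median of all tested genes to 0.11 on the log2 scale, and Rdh10 then also passed as higher. Scaling to the summed RPE markers moved the median of all tested genes to -0.46, and 8 of the 9 genes then passed as lower. With Ttr left out of that sum the median was -0.07, Lrat passed as lower beside Rpe65, Rdh5 and Stra6, and Rrh no longer passed. Rpe65, Rdh5 and Stra6 were called lower under each of the 8 other settings of scaling, filter, tool and replicate number, with log2 fold changes of -0.73 to -0.16, -0.74 to -0.17 and -0.91 to -0.34. On the scale of the RPE markers with Ttr the log2 differences of Sox9, Otx2 and Mitf were below 0 (-0.16, -0.18 and -0.18, edgeR adjusted p = 0.156, 0.0473 and 0.304). Of these 3 only Otx2 passed. Otx2 and Mitf are themselves among the RPE markers of that sum. With Ttr left out of that sum 2 of the 5 transcription factors passed, and Sox9 did not (log2 difference 0.23, adjusted p = 0.0619).

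**Figure D4:**
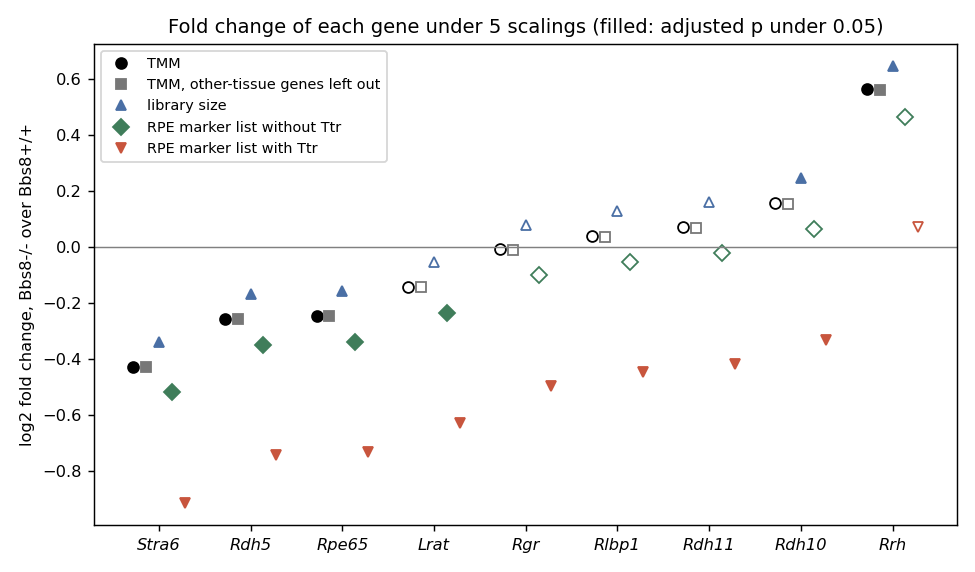
Log2 fold change of Bbs8-/- over Bbs8+/+ RPE (vertical axis) for each visual cycle gene under 5 scalings of the libraries. Filled symbols passed an adjusted p of 0.05. The genes keep nearly the same order while the whole set shifts, and Stra6, Rdh5 and Rpe65 are below 0 and filled under all 5.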

How the data were processed

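RNA of isolated RPE from 4 Bbs8+/+ and 4 Bbs8-/- mice at P29 was sequenced in QuantSeq 3′ libraries, single-end, 100 bases. The authors trimmed reads with BBDuk, aligned them with STAR to mm10 with Ensembl gene models and deposited raw counts of uniquely mapped reads per gene from htseq-count, with no normalization, pooling or filter. Reads that fell outside genes, were ambiguous or did not map uniquely were kept out of library sizes: reads outside genes were 17.0% to 20.6% and reads not mapped uniquely 32.8% to 34.5% of a library.

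Symbols and coordinates came from GENCODE M21 (GRCm38, the build of the files), in which 30934 of 31053 identifiers had a symbol. The 118 listed genes each matched 1 identifier. Promoter windows came from a RefSeq table (GRCm38.p6). Fits were made with edgeR 4.0.16 under R 4.3.3 (TMM, trended quasi-likelihood dispersions) and, as an alternative, DESeq2 1.42.0, and the test was checked on simulated data. Standard errors and 95% intervals were derived from the F statistic. Depth per library was 2389835 to 3093428 counts. Libraries were grouped by their labels. Each animal is a replicate. The edgeR p-values rest on the spread between these animals, pooled in large part over other genes (prior plus residual degrees of freedom 33.3 to 36.3).

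The 9 genes, the other lists and the tests were chosen with earlier results of these data known. Named were the 9 genes, Ttc8, the listed retinoid genes and regulators past the threshold or among the 3 most abundant of their list, the 2 most abundant genes of each marker list, and the 5 genes most like Rpe65 in profile. A result that the rule covers is not reported here. Other genes named were chosen after their values were seen, as were the ratios and motifs. Same-numbered libraries of the genotypes did not deviate together (r = -0.0546 to 0.0053 over 8428 genes).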

Additional observations from a re-analysis of the deposited data

Results flagged for a closer look

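In 84 groups of 4 libraries, the 2 genotypes of 42 named genes, the highest or lowest library was checked with Dixon's ratio (its gap to the nearest library over the range of the group), which chance exceeds in about 1 of 20 groups. It was exceeded in 5. Rrh in the fourth Bbs8-/- library was low at 199 CPM against 233 to 238 in the others (ratio 0.861). Stra6 in the first Bbs8+/+ library was low at 364 CPM against 394 to 396 (0.934). Sox9 in the third Bbs8+/+ library was low at 442 CPM against 489 to 498 (0.840). Sag, a rod gene, was highest in the first Bbs8+/+ library (0.841). Gnat2, a cone gene, was low in the third Bbs8-/- library at 28.8 CPM against 37.4 to 38.2 (0.915). The first Bbs8+/+ library of Rrh, the value farthest from its group in absolute terms, did not exceed the ratio because the other controls were spread.

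Reads outside annotated genes, which enter no comparison, had a median share of 20.3% in the Bbs8-/- libraries and 17.2% in the Bbs8+/+ libraries, with ranges of 19.8% to 20.6% and 17.0% to 18.4% that did not overlap. Their part in the values of the visual cycle genes was not tested.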

How the results depend on the processing

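The numbers of genes called over all tested genes, 704 higher and 877 lower, became 167 and 4316 when libraries were scaled to the summed RPE markers. On that scale 0 visual cycle genes were higher and 8 lower, 12 other retinoid genes were lower and 1 transcription factor was called. With library size alone 2 visual cycle genes and 2 other retinoid genes were higher, and 5 transcription factors were called. Without a filter beyond 1 count 2 other retinoid genes were higher. With DESeq2, and with edgeR on the RPE marker scale without Ttr, added after seeing the data, 0 visual cycle genes were higher. In each case 1 was higher at an unadjusted p under 0.05. In DESeq2's Wald test that gene was Rdh10 (adjusted p = 0.09385) and not Rrh (adjusted p = 0.3286). In edgeR on the RPE marker scale without Ttr it was Rrh (adjusted p = 0.08572). With Ttr in that scale edgeR left 0 higher at an unadjusted p under 0.05. The split of calls was 1005 higher to 657 lower with library size alone, and 479 to 1209 on the RPE marker scale without Ttr.

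Among the genes read one by one, which leave out Lhx2, several log2 fold changes turned sign on the RPE marker scale. They were those of Rdh10 (-0.33), Rdh11 (-0.42), Rlbp1 (-0.45), Degs1 (-0.30), Sox9 (-0.16), Otx2 (-0.18) and Mitf (-0.18). Without Ttr in that list Rdh11 (-0.0216) and Rlbp1 (-0.0534) did, and Rgr turned to 0.0797 with library size alone and to 0.0036 with edgeR's own expression filter. The scales move all genes together by construction, and the cause of the change with the filter was not tested.

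With each library left out in turn, 0 to 1 visual cycle genes were higher and 3 were lower in each case. The calls ranged from 553 to 645 higher and 689 to 847 lower genes, 1 other retinoid gene was higher and 4 to 5 were lower, and 3 to 4 transcription factors were called. Rdh11 ranged from -0.000514 to 0.16, Rgr from -0.0335 to 0.0094 and Rrh from 0.30 to 0.74 on the log2 scale. A replicate block gave 650 higher and 827 lower genes, with 1 and 3 visual cycle genes, and changed no call among the visual cycle genes. Named genes outside the retinoid and transcription factor lists were not read one by one with it. Whether the numbers pair the animals is not given in the labels, and the correlations of same-numbered libraries cannot settle it. At this depth genes near 3 counts, such as Best1 and Aldh1a3, cannot be compared.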
